A study of Arabidopsis thaliana with 8 samples.

Results

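Calmodulin-like genes encode small calcium sensors, and 5 of them were followed through heat, anoxia and the combination of both in dark-grown *Arabidopsis thaliana* seedlings: CML38, CML37, CML23, AT1G76640 and AT1G21550. They are 5 of the 35 calmodulin-like genes that have a named probe set, and 5 of 13350 genes to which the annotation used assigns a probe set of their own. They were selected on their intensities in heat and in anoxia on these same 8 arrays, so their levels and differences are given as a description, with no test. RefSeq lists CML39 as another name of AT1G76640, and it gives that name to CML37 as well. AT1G76640 is therefore called by its locus here. AT1G21550 carries no CML name in the tables used.

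Calcium ions enter the cytosol within moments of many stresses, and proteins with EF-hand loops bind them and change shape. Calmodulin is the general member of this group, and plants have in addition a large family of calmodulin-like proteins that differ in when and where they are made. CML38 is known as a gene of low-oxygen stress whose protein gathers in RNA granules. CML37 is known from wounding, insect feeding and drought, CML23 from nitric oxide signalling and flowering time together with its close relative CML24, and AT1G76640 from early seedling development.

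Seedlings of the ecotype Columbia 0 were germinated in air and grown in darkness at 23 °C for 4 days in half-strength Murashige and Skoog liquid medium with 30 mM sucrose. Controls were left untreated, heat seedlings were held at 38 °C for 90 minutes, anoxia seedlings were kept at 23 °C for 6 hours without oxygen in a nitrogen and hydrogen atmosphere, and the combined group received the 38 °C treatment first and the 6 hours of anoxia at 23 °C directly after it. All 4 groups stayed in the dark. No group was heated and then kept in air for 6 hours. In heat then anoxia against heat, the part of anoxia and that of the time since heat therefore cannot be told apart. Heat lasted 90 minutes and anoxia 6 hours, so between these groups the kind of stress and its length cannot be told apart either. RNA came from whole seedlings, so a change in the make-up of the tissue and a change of RNA per cell cannot be told apart. Each group had 2 biological replicates, each on 1 Affymetrix ATH1 array, and that number limits the precision of every value.

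All values below are the log2 of the deposited GCRMA intensity, on which a difference of 1 is a 2-fold change. Levels of different probe sets are not comparable, since probes differ in binding, so each gene is compared only with itself. Signals under a log2 level of 4 lie near the array background, where the size of a fold depends on the background model. Of the 16 cell type markers, 4 had a named probe set. PORB, a protochlorophyllide reductase of dark-grown tissue, stood at 13.9 in both control arrays, at 13.4 to 13.7 in heat and anoxia, and at 12.2 and 11.8 in heat then anoxia. FAMA, a guard cell factor, stood at 2.23 to 2.79. EXPA7 and EXPA18, expansins of root hairs, stood at 4.09 to 6.78 in the controls and at 1.89 to 3.43 in the other 6 arrays. The 25S ribosomal RNA control signal was 12.2 in anoxia replicate 2 and 11.5 in heat then anoxia replicate 2, against 2.79 to 6.58 elsewhere. The part that these shifts play in the values below was not tested.

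The 5 genes fell into 2 kinds by the difference between their heat and anoxia responses. A gene was called heat-led when its log2 fold change against control was at least 1 in heat and exceeded that in anoxia by more than 1, and anoxia-led in the reverse case. AT1G21550, CML37 and CML23 were heat-led, CML38 and AT1G76640 were anoxia-led, and 0 met the rule for a shared response (both at least 1 and no more than 1 apart). The sorting was the same without either control array, though leaving one out moves both folds equally and so cannot change their difference. With any single array left out, the difference between heat and anoxia nearest to the limit of 1 was 2.31, for CML23 without anoxia replicate 1. AT1G76640 nevertheless stood at least 2-fold above control in both treatments, also on the log2 (intensity plus 16) scale, which damps low signals. CML37 and AT1G21550 did so on the log2 scale, but their anoxia values were 0.95 and 0.37 on the damped one, since their controls lie near background. The values closest to the limit of 1 were those in anoxia of CML23, at 0.93, and AT1G21550, at 1.22. Heat and anoxia also differed in length, so the names heat-led and anoxia-led do not separate the kind of stress from its duration.

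**Figure D1:**
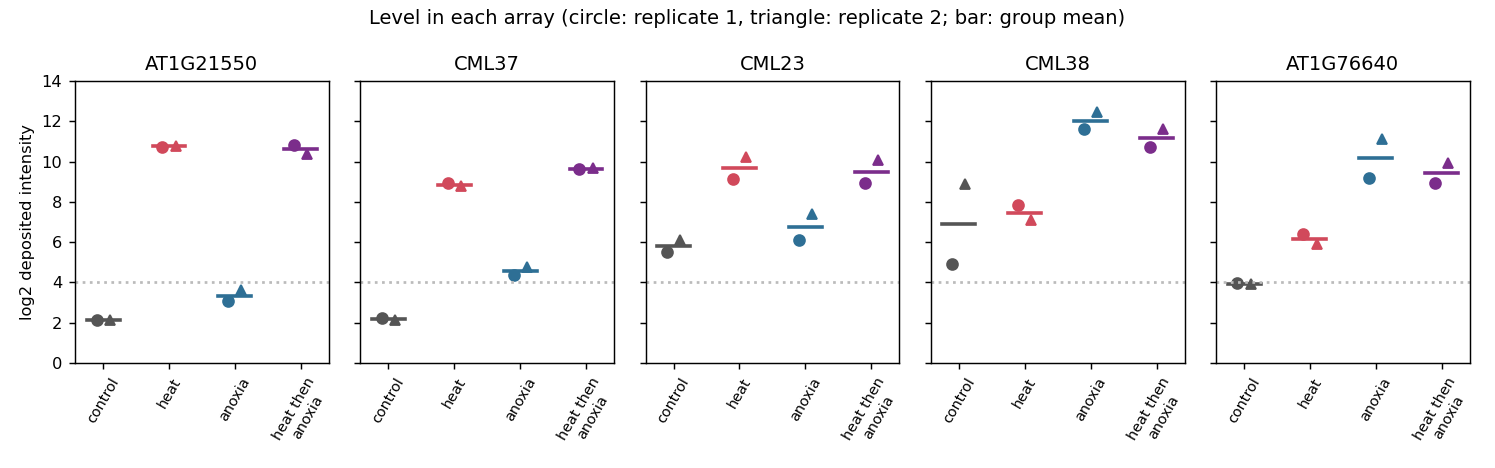
Log2 deposited intensity of each of the 5 genes (1 panel per gene) in the 2 arrays of each group, with a bar at the group mean and a dotted line at the level of 4 used as filter. AT1G21550, CML37 and CML23 stand highest in both heated groups, and CML38 and AT1G76640 in both groups kept without oxygen.

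AT1G21550 stood near background without heat and high with it. Its level was 2.10 and 2.14 in the control arrays, 10.7 and 10.8 in heat, 3.05 and 3.63 in anoxia, and 10.8 and 10.4 in heat then anoxia. The heated arrays stood far above all others, the 2 anoxia arrays stood slightly above the controls, and the 2 heated groups overlapped. Heat exceeded control by 8.63 ± 0.27 (SE of the fit, n = 2 per group) and anoxia by 1.22 ± 0.27. All 4 control and anoxia arrays lay below 4, in the background range of the array, so the sizes of both differences depend on the background model. They were 6.42 and 0.37 on the log2 (intensity plus 16) scale.

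Heat compared directly with anoxia shares no control array with either of these differences. AT1G21550 was 7.41 ± 0.27 higher in heat than in anoxia, against an anoxia signal near background, and 6.05 higher on the log2 (intensity plus 16) scale. When anoxia followed heat, its level differed from that after heat alone by -0.15 ± 0.27. The arrays of both groups, taken 6 hours of anoxia apart, overlapped.

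CML37 was also heat-led, with a clear smaller elevation in anoxia. Its level was 2.23 and 2.14 in the controls, 8.91 and 8.78 in heat, 4.36 and 4.74 in anoxia, and 9.62 and 9.66 in heat then anoxia. The 4 groups did not overlap, and their order was control, anoxia, heat, heat then anoxia. Against control the difference was 6.66 ± 0.23 in heat, 2.37 ± 0.23 in anoxia and 7.45 ± 0.23 in the combined treatment. The control level near background makes all 3 values depend on the scale, and they were 4.53, 0.95 and 5.31 on the log2 (intensity plus 16) scale.

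In the direct comparison CML37 was 4.29 ± 0.23 higher in heat than in anoxia. It was the only one of the 3 heat-led genes whose level after heat then anoxia exceeded that after heat in both arrays, by 0.79 ± 0.23. Its replicates lay within 0.38 of each other in every group, and those of AT1G21550 within 0.58.

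CML23 was heat-led with a narrower range. Its level was 5.52 and 6.09 in the controls, 9.15 and 10.2 in heat, 6.10 and 7.38 in anoxia, and 8.91 and 10.1 in heat then anoxia. Unlike those of AT1G21550 and CML37, its control signal stood above the background range, so its folds are less dependent on the background model. Heat exceeded control by 3.88 ± 0.57 (14.7-fold) and the combined treatment by 3.68 ± 0.57 (12.8-fold). Both heated groups overlapped each other and stood above all 4 unheated arrays.

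The anoxia difference of CML23 was 0.93 ± 0.57, and only 0.01 separated the lower anoxia array from the higher control array. The value was 0.29 without anoxia replicate 2 and 1.57 without anoxia replicate 1. Heat exceeded anoxia by 2.95 ± 0.57. Within each group the arrays of CML23 lay 0.56 to 1.28 apart, with replicate 2 the higher one each time.

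AT1G76640 was anoxia-led, with a lesser elevation in heat. Its level was 3.95 and 3.92 in the controls, 6.39 and 5.92 in heat, 9.20 and 11.1 in anoxia, and 8.91 and 9.92 in heat then anoxia. Every treated array stood above the controls, heat lay between control and both groups kept without oxygen, and those 2 groups overlapped. Against control the difference was 6.23 ± 0.60 in anoxia, 2.22 ± 0.60 in heat and 5.48 ± 0.60 in the combined treatment. Its controls lay just under 4, and on the log2 (intensity plus 16) scale the values were 5.22, 1.48 and 4.48. The anoxia value was 5.27 without anoxia replicate 2, one of the arrays with the high 25S signal, and 7.19 without anoxia replicate 1.

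CML38 was anoxia-led as well, and its controls stood far apart. Its level was 4.89 and 8.89 in the control arrays, 7.84 and 7.09 in heat, 11.6 and 12.4 in anoxia, and 10.7 and 11.6 in heat then anoxia. The 4 arrays kept without oxygen stood above all others, while both heat arrays lay between the 2 controls. The mean control level was 6.89 ± 2.82 (SD, n = 2). Anoxia exceeded it by 5.14 ± 1.09, which was 3.15 against control replicate 2 alone and 7.14 against control replicate 1 alone.

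The gap between the controls leaves the heat response of CML38 without a direction. The difference was 0.58 ± 1.09 against both controls, 2.57 against control replicate 1 and -1.42 against control replicate 2. In the direct comparison the difference itself does not use the controls, and there the heat level of CML38 stood -4.56 ± 1.09 from that in anoxia. Every SE of CML38 does include the gap between its controls, since the fit uses 1 spread for all 4 groups. Its SD was 0.53 in heat and 0.58 in anoxia, against 2.82 in the controls. For AT1G76640 the difference of heat from anoxia was -4.01 ± 0.60, and it was -4.98 and -3.05 without anoxia replicates 1 and 2. Among the 30 other calmodulin-like genes with a named probe set, 3 differed more than 2-fold between the controls. Of all probe sets that passed the filter, 6.58% did, and AT5G39670, among the 3, did not pass it.

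**Figure D2:**
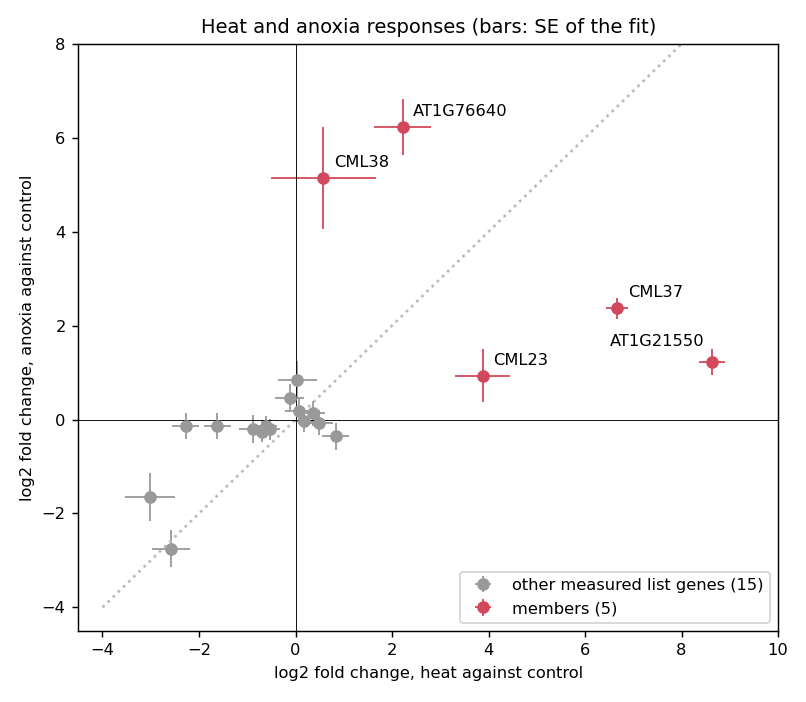
Log2 fold change against control in heat (x axis) and in anoxia (y axis) for the 5 genes (red) and 15 other measured genes of the calcium lists (grey), with SE bars of the fit; on the dotted line both values are equal. CML38 and AT1G76640 lie above the line and AT1G21550, CML37 and CML23 below it, and both axes share the control arrays.

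By the threshold used across all probe sets (a 2-fold change with a limma p below 0.05 after Benjamini-Hochberg adjustment), 4 of the 5 genes counted as higher in heat than in control, where 10.5% of all probe sets did. In anoxia 4 of 5 counted as higher, beside 3.95% of all, and in heat then anoxia 5 of 5, beside 15.2%. In heat against anoxia 3 counted as higher (9.46% of all) and 2 as lower (12.0% of all). These comparisons chose the genes, so nothing is read from the counts. Without anoxia replicate 2 the anoxia count was 2, and without heat replicate 2 the count in heat against anoxia was 3 in all instead of 5. The median log2 difference of all probe sets was -0.22 in heat, -0.01 in anoxia and -0.33 in heat then anoxia, each against control.

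The combined treatment asked where each gene stands when both stresses are given in turn. The heat-led genes stood near their level after heat and the anoxia-led genes near their level in anoxia. Against anoxia alone, the combined treatment was higher by 7.26 ± 0.27 for AT1G21550, 5.09 ± 0.23 for CML37 and 2.75 ± 0.57 for CML23. For AT1G76640 that difference was -0.75 ± 0.60 with overlapping arrays, and it was -1.71 and 0.21 without anoxia replicates 1 and 2. For CML38 it was -0.88 ± 1.09, with 0.02 between the nearest arrays of the 2 groups. By the threshold, 3 of 5 counted as higher than in anoxia (12.8% of all probe sets) and 0 as lower (17.2%).

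Against heat alone, the combined treatment was higher by 3.69 ± 1.09 for CML38 and by 3.26 ± 0.60 for AT1G76640. The arrays of the 2 groups did not overlap for either gene. The SE of CML38 includes the gap between its controls, though no control enters this difference. Its SD was 0.53 in heat and 0.63 in heat then anoxia, and it was not counted below as higher. The difference was -0.20 ± 0.57 for CML23. By the threshold, 1 gene, AT1G76640, counted as higher than in heat (5.13% of all) and 0 as lower (4.66%). That count was 2 without either control array, and it was 0 when either heat array or replicate 2 of the combined treatment was left out.

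On the log2 scale the combined response lay below the sum of the heat and anoxia responses for each of the 5 genes when all arrays were used, for CML38 by less than its SE. For AT1G76640 the heat and anoxia differences summed to 8.45, while the combined treatment stood at 5.48, so that the interaction was -2.97 ± 0.85. It was -3.93 and -2.01 without anoxia replicates 1 and 2, and that of CML23 was -1.77 and -0.49. The interaction was -1.57 ± 0.32 for CML37, -1.37 ± 0.38 for AT1G21550, -1.13 ± 0.80 for CML23 and -1.46 ± 1.54 for CML38, and all probe sets had a median of -0.04. Against control replicate 2 alone the value of CML38 was 0.54, and against control replicate 1 alone it was -3.45. That of CML37 was -0.17 and that of AT1G21550 was -0.52 on the log2 (intensity plus 16) scale, on which the low signals of their control and anoxia arrays count for less.

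**Figure D3:**
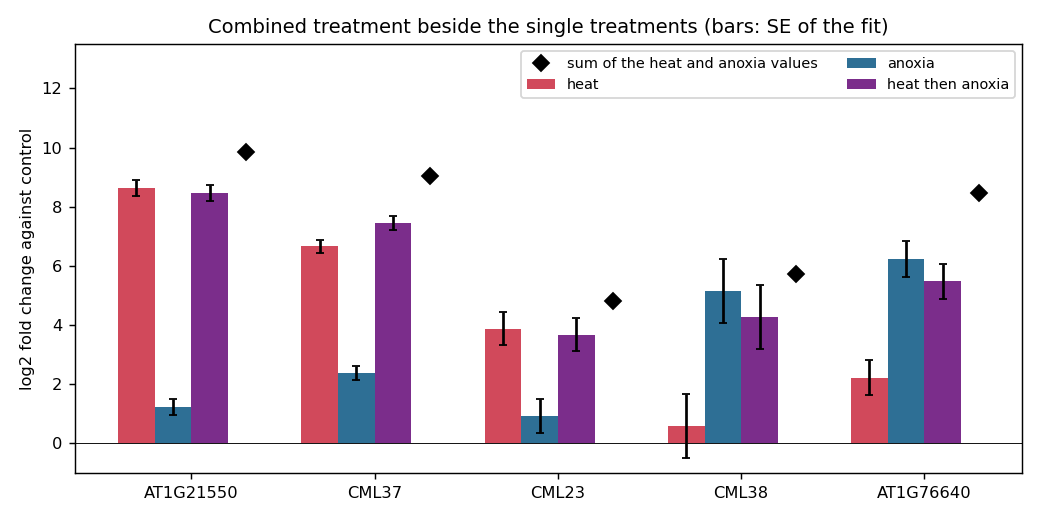
Log2 fold change against control (y axis) in heat, anoxia and heat then anoxia for each gene, with SE of the fit, and as a diamond the sum of the heat and anoxia values. The diamond lies above the bar of the combined treatment for each of the 5 genes, at 8.45 against 5.48 for AT1G76640.

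CML38 and AT1G76640 lie next to each other in the RefSeq gene order of the TAIR10.1 assembly, and they were the pair of anoxia-led genes. The likeness of 2 genes was measured as the root mean square difference of their log2 values over the 8 arrays after each was centred on its own mean, so that 0 is an identical profile. It was 1.21 for CML38 and AT1G76640, 1.17 for AT1G21550 and CML37, 1.5 for CML37 and CML23, and 2.37 for AT1G21550 and CML23. All pairs of a heat-led with an anoxia-led gene were at 2.62 or more. The sorting used the same heat and anoxia values, so this separation follows largely from it and is no support for it.

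The nearest measured genes on either side of the pair did not share the anoxia elevation. AT1G76620, 2 genes from AT1G76640, differed from control by -0.11 in anoxia (limma adjusted p = 0.857). AT1G76670, 2 genes from CML38, had no named probe set. Genes beyond these were not looked at by position. Among them AT1G76600, near in locus number, had mean levels of 4.36 in control and 11.1 in anoxia. AT1G76630, beside AT1G76640, stood at 4.72 and 4.87 in the controls and 5.04 and 4.88 in anoxia, and its differences from control were -0.16 in heat and 0.17 in anoxia (limma adjusted p = 0.629 and 0.715). AT1G76660, beside CML38, stood at 7.17 and 7.23 in the controls and 7.11 and 7.27 in anoxia, a difference of -0.01 (limma adjusted p = 0.982). AT1G76660 fell in heat by 1.65 ± 0.25 on the log2 scale (limma adjusted p = 0.00169) and differed by -1.44 in heat then anoxia (0.00231).

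**Figure D4:**
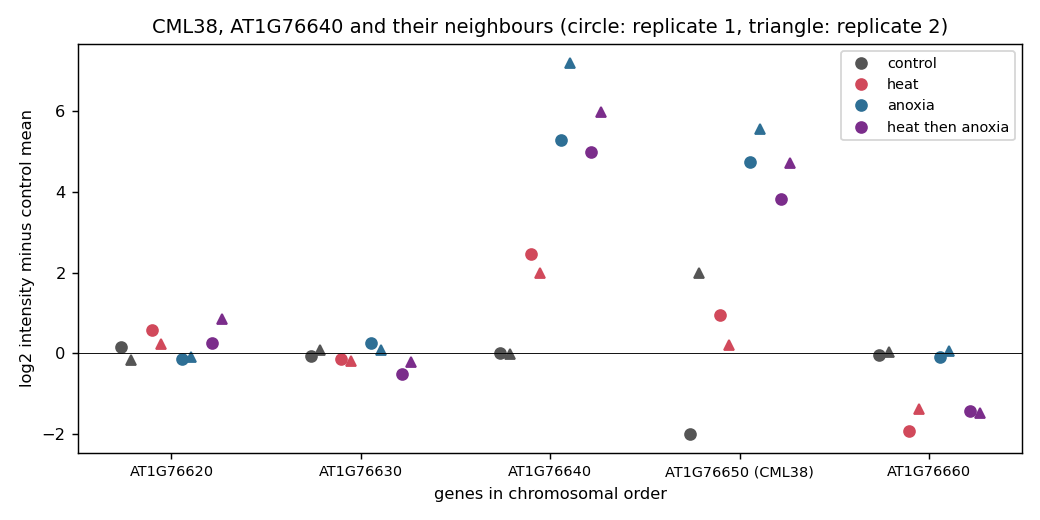
Log2 intensity minus the control mean in every array (y axis) for CML38 (AT1G76650), AT1G76640 and the measured genes beside them in chromosomal order (x axis), coloured by group. The anoxia arrays stand far above 0 for the 2 calmodulin-like genes and near 0 for AT1G76620, AT1G76630 and AT1G76660.

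AT1G21550 had a neighbour that also rose in heat. AT1G21560, the next gene, stood at 7.25 and 7.63 in the controls, 8.97 and 9.21 in heat, 6.93 and 7.64 in anoxia, and 8.70 and 9.04 in heat then anoxia. It rose by 1.65 ± 0.31 in heat (limma adjusted p = 0.00456) and by 1.43 in heat then anoxia (0.00625), and its anoxia arrays overlapped the controls. AT1G21540, on the other side, stood at 2.29 to 3.02 on all 8 arrays. No named probe set matched the 2 nearest genes on either side of CML23. The genes beside CML37, AT5G42370 and AT5G42390, were not called in heat or in anoxia (limma adjusted p of 0.103 or higher).

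Other genes with similar profiles were sought among 7778 probe sets that passed the filter and matched 1 locus. For CML37 these were AT5G25450, Fes1A and AT1G52870, at root mean square differences of 0.24, 0.32 and 0.33. Fes1A, which binds the chaperone HSP70, stood at 6.35 and 6.21 in the controls, 13.8 and 13.6 in heat, 8.97 and 9.50 in anoxia, and 13.9 and 13.9 in heat then anoxia. AT1G21550 had AT1G10260, AT4G33905 and AT5G62730 at 0.57, 0.71 and 0.73. CML23 had AT4G08230, AT2G07751 and AT5G51630 at 0.38, 0.41 and 0.41. AT1G10260 and AT2G07751 were each read from a probe set of a type that can cross-hybridise, so the signal may not be of that gene alone.

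The nearest match of each anoxia-led gene was looser than that of each heat-led gene, though the values of AT1G76640 and AT1G21550 overlapped. Scatter between replicates can add to this measure. The controls of CML38 lay 3.99 apart and the anoxia arrays of AT1G76640 1.93 apart. CML38 was nearest to AR781, AT1G72060 and AT1G68620, at 0.76, 0.95 and 1.02. The first 2 of these also differed between the controls, with AR781 at 3.78 and 6.74 and AT1G72060 at 4.41 and 7.99 in replicates 1 and 2. AT1G76640 was nearest to AT1G76600, AT2G47950 and AT5G64190, at 0.70, 0.85 and 0.87. AT1G76600 stood at 3.64 and 5.08 in the controls, 7.46 and 6.69 in heat, and 11.2 and 11.0 in anoxia. These likenesses are descriptive, since all profiles come from the same 8 arrays and share their differences.

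The rest of the calmodulin-like family gave the setting of these 5 genes. Of 50 loci listed, 35 had a named probe set, all with 1 probe set each, and 30 of these are not among the 5. Of the 30, 12 passed the filter, 14 never reached a log2 level of 4, and 4 reached it in 1 array. In heat 0 of the 12 rose and 4 fell, where 17.9% of all probe sets fell, and 9 had an unadjusted limma p below 0.05. AT2G41410 was among these 9 with a higher level. The share of all probe sets at that unadjusted limit was not computed, so nothing is read from the unadjusted counts. The median of the 12 was -0.65, against -0.22 over all probe sets. In anoxia 0 rose and 1 fell, beside 5.92% of all that fell, with 2 at an unadjusted p below 0.05 and a median of -0.17. In heat then anoxia 1 rose and 3 fell, beside 25.4% of all that fell, with a median of -0.61. AT3G10190, the 1 that fell in anoxia and among those that fell in the other 2 comparisons, passed the filter only through its control arrays. Leaving out single arrays moved the number of list genes called in heat then anoxia, activators included, from 5 to between 3 and 6; it was 3 without control replicate 1 or without either array of the combined treatment. The 5 genes were chosen for their rises and these 12 were not, so the 2 sets cannot be compared by a test.

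CML42, known from leaf hair branching and defence against insects, had the widest range of the 12. It stood at 5.20 and 6.89 in the controls, 3.02 and 3.05 in heat, 4.24 and 4.54 in anoxia, and 3.0 and 3.70 in heat then anoxia. It fell by 3.01 ± 0.51 on the log2 scale in heat (limma adjusted p = 0.00305) and by 2.70 in heat then anoxia (0.00367), while anoxia stood at -1.66 (0.0868). AT3G10190 stood at 5.65 and 4.33 in the controls and between 2.07 and 2.43 in the other 6 arrays, and it fell in heat, anoxia and heat then anoxia by 2.58, 2.75 and 2.82 (limma adjusted p = 0.00200, 0.00481 and 0.000954). The treated arrays of AT3G10190 lie in the background range, so these falls have no order. Only its control arrays reached 4, so it passed the filter through the group where it was high. The filter thus favoured a fall, and these adjusted p values cannot be taken at face value.

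AT3G25600 fell in heat and stood near its control level after heat then anoxia. It stood at 8.98 and 8.98 in the controls, 7.05 and 6.36 in heat, 8.69 and 8.99 in anoxia, and 8.78 and 8.59 in heat then anoxia. The change in heat was -2.28 ± 0.28 (limma adjusted p = 0.000668), while anoxia and heat then anoxia stood at -0.14 and -0.29 from control (0.818 and 0.416). From heat to the end of the following 6 hours without oxygen the level rose by 1.98 ± 0.28 (0.00715). Anoxia and the time since heat cannot be told apart in that rise. That rise had limma adjusted p = 0.0516 without the 2 arrays of high 25S signal. AT1G18210, named after its values were seen, was the fourth gene to fall in heat, by 1.62 (limma adjusted p = 0.00356).

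AT2G41410 moved a little in the direction of the heat-led genes, though in heat it was not called against control (0.83 ± 0.29, limma adjusted p = 0.0585). It stood at 10.3 and 10.4 in the controls, 11.1 and 11.3 in heat, 9.63 and 10.4 in anoxia, and 11.4 and 11.4 in heat then anoxia. It was 1.41 ± 0.29 higher in heat then anoxia than in anoxia (limma adjusted p = 0.00749). Against control it was 1.05 higher in the combined treatment (0.0175), with adjusted p of 0.0771 and 0.0535 when control replicate 1 or 2 was left out, and of 0.0712 and 0.0671 when replicate 1 or 2 of the combined treatment was. AT1G12310 fell by 1.24 in heat then anoxia (0.00247), and the difference was -0.85 after median centring, short of 2-fold. In heat against anoxia, AT3G25600 (-2.13, limma adjusted p = 0.00126) and AT1G18210 (-1.48, 0.00734) were lower and AT2G41410 (1.18, 0.0200) higher, the last of these not called without either heat array (0.0696 and 0.101) or without anoxia replicate 1 (0.80, 0.0664), or in a fit of those 2 groups alone (0.0654).

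**Figure D5:**
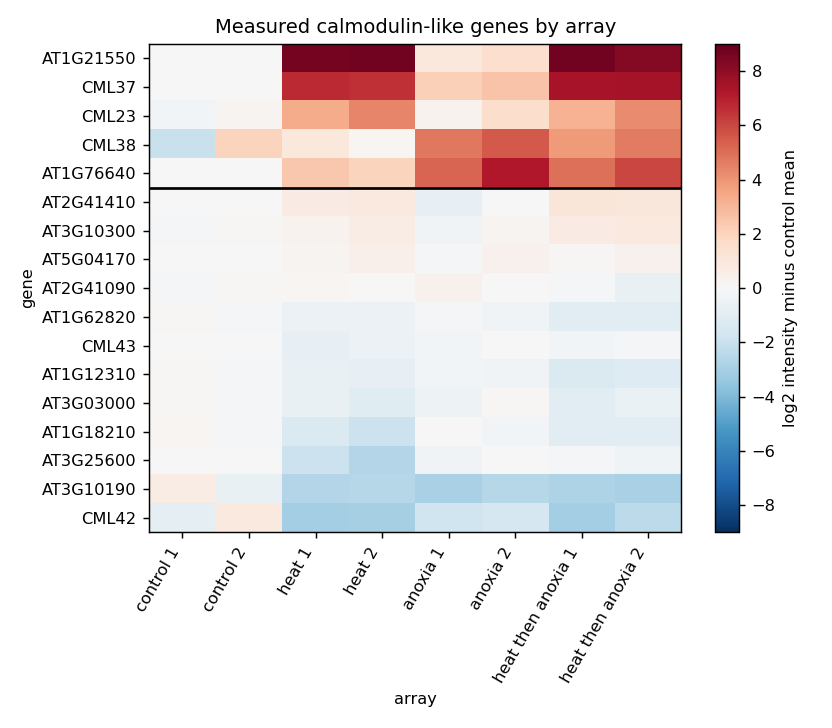
Log2 intensity minus the control mean (colour) in each of the 8 arrays (x axis) for the 17 calmodulin-like genes that passed the filter (y axis), with the 5 chosen genes above the black line. The heat arrays of AT1G21550 stand on average 8.63 above control, and those of CML42 stand at -3.01.

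Other calcium genes could hardly be set beside them. Calmodulins, calcineurin B-like sensors, calcium-dependent protein kinases and calcium pumps and exchangers had 0 named probe sets of 7, 10, 34 and 21 listed loci, and they were not analysed here. Of 6 calmodulin-binding transcription activators, factors that read the calcium signal into gene expression, 3 had one. AT1G67310 stood at 6.26 and 7.01 in the controls, 6.52 and 6.81 in heat, 6.96 and 8.0 in anoxia, and 7.63 and 8.08 in heat then anoxia. It was 1.22 ± 0.41 higher than control in the combined treatment (limma adjusted p = 0.0374). The value fell short of a call when several single arrays were left out, with 0.85 (0.196) without control replicate 1, 1.00 (0.172) and 1.45 (0.0642) without replicates 2 and 1 of the combined treatment, and an adjusted p of 0.0543 without either heat array. It was not called either without both arrays of high 25S signal (0.0986) or with no filter (0.0840). The other 2, AT4G16150 and AT3G16940, had 0 calls in limma in any of the 6 comparisons, and no unadjusted p below 0.05 in any of them.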

How the data were processed

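The deposited table holds intensity values on a linear scale, made by the authors with GCRMA per the submitters' processing notes, whose version the sources used here do not give. The 64 array controls among the 22810 probe sets did not enter any fit. The log2 of each intensity was taken, and the 14535 probe sets that reached 4 on that scale in 2 or more of the 8 arrays entered a model of 4 group means in limma 3.58.1 under R 4.3.3 (empirical Bayes, 4 residual degrees of freedom). Calls required a Benjamini-Hochberg adjusted p below 0.05 within a comparison and a 2-fold change. Probe sets were named through the platform annotation and RefSeq (1 gene for 13513, several for 503, none for 8730). Median intensity per array was 36.8 to 53.2, and replicates correlated at 0.965 to 0.979 across probe sets.

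The members and gene lists were chosen with earlier results of these data known. Besides the 5 members, the text names up to 3 highest and 3 lowest called list genes per comparison, the 3 most similar genes of each member, and neighbours chosen after the data were seen. The fit was tested on simulated data. Alternatives were other filters, priors, normalizations, a pseudocount of 16, a replicate block, no fold threshold, only the groups compared, and each array left out, where the lone array of a group was assumed to vary like the others. One more alternative, without both arrays of high 25S signal, was chosen after seeing the data. Plots used matplotlib 3.10.9 (Python 3.11.15).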

Additional observations from a re-analysis of the deposited data

Results flagged for a closer look

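The interaction term, the effect of anoxia after heat minus its effect without heat, passed the threshold for 2 calmodulin-like genes outside the 5. Its first part also holds the 6 hours passed since heat, which the design cannot tell apart from anoxia. For AT3G25600 the difference was 2.12 ± 0.40 (SE; limma adjusted p = 0.0235): its 2 heat arrays stood at 7.05 and 6.36 and the other 6 between 8.59 and 8.99. With single arrays left out it missed the threshold for 6 of 8 (adjusted p of 0.0657 to 0.0766), and it passed without heat replicate 1 or anoxia replicate 2. Without both arrays of high 25S signal the adjusted p was 0.0870. For AT3G10190 the difference was 2.51 ± 0.57 (limma adjusted p = 0.0435), on levels of 2.43 or lower in all 6 treated arrays. With all treated signals in the background range, a further fall after heat could not have been measured, so the term does not show that the effects differ. It did not pass with no filter (0.0961), after quantile normalization (2.29, 0.0600), without both arrays of high 25S signal (0.137) or on the log2 (intensity plus 16) scale (1.18, 0.116). With single arrays left out it missed the threshold for 7 of 8 (adjusted p of up to 0.120), and it passed without control replicate 2.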

How the results depend on the processing

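With 2 arrays per group, a single array decides several values. For CML38 the difference from control ran from -1.42 to 2.57 in heat, from 3.15 to 7.14 in anoxia and from 2.27 to 6.26 in heat then anoxia when single arrays were left out, the ends given by leaving out control replicates 1 and 2. In anoxia the range was 2.18 to 2.56 for CML37, 0.29 to 1.57 for CML23, 5.27 to 7.19 for AT1G76640 and 0.93 to 1.51 for AT1G21550, set by the anoxia arrays. Without both arrays of high 25S signal the anoxia values of CML37, AT1G76640 and AT1G21550 were 2.18, 5.27 and 0.93. Median centring, which lifts the median of all probe sets from -0.22 to 0.12 in heat, gave 7.01 and 8.97 in heat and 7.85 and 8.87 in heat then anoxia for CML37 and AT1G21550. On the log2 (intensity plus 16) scale heat stood at 4.53 and 6.42, anoxia at 0.95 and 0.37 and heat then anoxia at 5.31 and 6.27 for CML37 and AT1G21550, and AT1G76640 stood at 5.22 in anoxia and 4.48 in heat then anoxia. The number of the 5 genes past the threshold in anoxia was 2 instead of 4 on that scale, in a fit of only the groups compared and without both arrays of high 25S signal.

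Of the 15 other list genes, 4 were called in heat, 1 in anoxia, 5 in heat then anoxia, and 1 each when the combined treatment was compared with anoxia or with heat. Single arrays left out gave 1 to 2 in anoxia, 3 to 6 in heat then anoxia and 1 to 3 for the combined treatment against anoxia. A stricter filter at log2 6, which tests fewer genes, gave 2, 0 and 3 against control. Without the fold threshold 9 were called in heat then anoxia and 5 in heat then anoxia against anoxia, where no filter and median centring each gave 2. Without both arrays of high 25S signal, 0 were called in heat then anoxia against heat. Where no reason is given, the cause was not tested. Each list gene had 1 probe set, so averaging probe sets changes nothing.

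Replicate numbers share no stated batch, and the deviations of same-numbered arrays correlated at 0.02 to 0.30 between groups. The replicate block gave 2 calls in anoxia and 2 in heat then anoxia against heat. Each group holds 1 array of each replicate number, so the block could not change any difference of the 5 genes. It narrowed the SE of CML23 from 0.57 to 0.24.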
